A study of Rattus norvegicus with 10 samples.

Results

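The genes described here are 35 transcripts of the oligodendrocyte lineage, taken by symbol from a list, among the 17168 genes of a hippocampal RNA sequencing series. They comprise 5 genes of precursors and newly forming oligodendrocytes (Pdgfra, Cspg4, Gpr17, Enpp6, Bcas1), 6 transcription factors of the lineage and 24 genes of mature, myelinating cells. All 35 were found and all 35 passed the filter on low counts. The tissue was left hippocampus from 10 male rats of the TgF344-AD line killed at 11 months, with 1 rat per library. TgF344-AD rats carry mutant human transgenes that cause amyloid deposition in the brain. The 5 untreated rats ate plain rodent chow. The chow of the other 5 held 750 mg per kg of RG2833, which blocks HDAC1 and HDAC3, for 6 months from 5 months of age. All 10 rats are transgenic, so drug is compared with no drug inside the disease model, and other genotypes were not analysed here. The series' text gives the timing for ibudilast, a different drug, whereas the sample labels and the title name RG2833, which was followed.

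Oligodendrocytes wrap axons in myelin, a stack of membrane rich in galactolipids and held together by a small set of abundant proteins. They arise throughout life from precursors that carry the PDGF receptor alpha and the NG2 proteoglycan, pass through a short committed stage, and switch on the myelin genes under the factors Sox10 and Myrf. Histone deacetylases act in this switch: in mice, loss of HDAC1 together with HDAC2 from the lineage blocks the making of oligodendrocytes. In whole tissue, fewer oligodendrocytes and less RNA per oligodendrocyte cannot be told apart.

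Total expected counts ran from 15118203 to 18533520 per library. Counts of the members ran from 53, for Nkx2-2, to 157460, for Mbp. Levels are given as CPM, counts per 1e+06 of a library size adjusted by TMM (trimmed mean of M-values); they are not divided by transcript length, so levels of different genes are not compared. Untreated replicate 2 and RG2833 replicate 1 stood apart in choroid plexus transcripts, and untreated replicate 3 in its level of precursor relative to myelin transcripts. That rat was also the lowest of the 10 in dentate granule, CA3 and neuronal markers (-1.10, -0.44 and -0.29). In microglial markers it was the highest, at 0.63. These values are the mean log2 CPM of each list minus its mean over the 10 rats. The part of tissue make-up in the lineage values of that rat was not tested.

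No member passed the comparison of RG2833 with untreated rats. With edgeR's quasi-likelihood test, 0 of 35 members had an adjusted p under 0.05, as did 0% of the 12161 genes tested. At an unadjusted p under 0.05 there were also 0 of 35, where the share of all genes was 5.66% (2.71% lower and 2.94% higher in RG2833). The smallest unadjusted p was 0.197 and the smallest adjusted p 0.892, both for Cnp. The groups overlapped for each of the 35 genes, where 1.00% of all genes did not overlap. Over every split of the libraries into 5 and 5, the smallest exact permutation p of a member, two-sided, was 0.262, again for Cnp. Standard errors of the log2 fold changes ran from 0.13 to 0.27. The 95% intervals lay within a 2-fold change in both directions for all 35 members, and within a 1.5-fold change for 21.

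**Figure D1:**
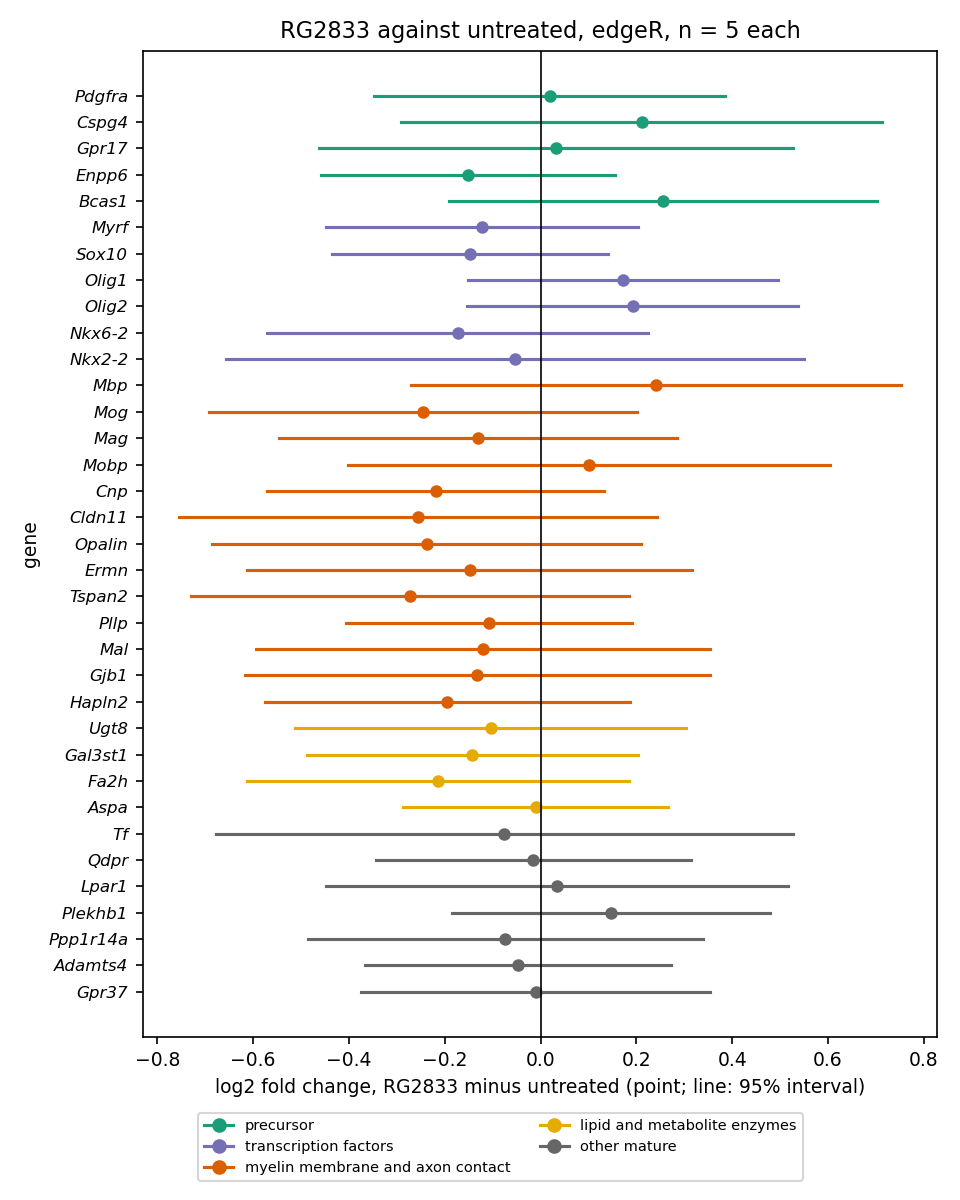
Log2 fold change of each member (x axis, RG2833 minus untreated, edgeR, n = 5 each), with its 95% interval as a line and its role as the colour; genes are on the y axis. All 35 intervals cross 0, and 20 of the 24 mature genes sit left of it.

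Of the 24 mature members, 20 had a negative log2 fold change, with a median of -0.11 and a range from -0.27 for Tspan2 to 0.24 for Mbp. Of the 6 transcription factors 4 were negative (median -0.09), and of the 5 precursor genes 1 was (median 0.03). Both medians rested on single rats. That of the transcription factors ran from -0.20 without RG2833 replicate 5 to -0.015 without RG2833 replicate 2, and leaving out any rat but untreated replicate 1 or RG2833 replicate 4 moved it by over 1.5 times. The precursor median turned negative without RG2833 replicate 5 (-0.042), RG2833 replicate 4 (-0.024) or untreated replicate 1 (-0.036) and reached 0.19 without untreated replicate 3, and any rat but untreated replicate 2 moved it by over 1.5 times. Over all genes tested, 53.5% were negative and the median was -0.01. Leaving out 1 rat moved the value of each of the 35 members by over 1.5 times for at least 1 choice of rat, and the count of negative mature genes rested on single rats too. It was 13 of 24 without untreated replicate 5, with a median of -0.0092, and 22 of 24 without untreated replicate 3, with a median of -0.23. Limma-voom with sample quality weights gave 22 of 24 mature genes negative, with a median of -0.29. The lowest transcription factor median over all fits tried was -0.23.

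How many members had an unadjusted p under 0.05 differed between fits. With limma-voom and sample quality weights, 11 of 35 members were lower and 0 higher, where 4.44% and 5.98% of all genes were. Their smallest limma adjusted p was 0.424. Untreated replicate 3 had the lowest weight at 0.239, followed by RG2833 replicate 5 at 0.603. Untreated replicate 5 had the highest at 2.01, followed by RG2833 replicate 2 at 1.98. Members varied together over the rats (r = 0.98 for Mog and Mag), so the 11 are not independent results. The 11 were Myrf, Sox10, Nkx6-2, Mog, Mag, Cnp, Cldn11, Opalin, Tspan2, Hapln2 and Fa2h. With edgeR and without untreated replicate 3, Mog, Cldn11 and Fa2h were lower and Cspg4 higher, where 4.96% and 9.24% of all genes were. Without RG2833 replicate 5, Sox10 alone was lower and none was higher, against 1.98% and 1.48% of all genes. With the replicate number as a block, Hapln2 alone was lower and none was higher, against 1.37% and 1.92%; the numbers are not known to pair the rats. No member had an adjusted p under 0.05 in any of these.

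Pdgfra, the receptor through which PDGF keeps precursors dividing, was at 98.0, 128, 171, 116 and 92.8 CPM in untreated replicates 1 to 5. In RG2833 replicates 1 to 5 it was at 122, 102, 108, 138 and 144 CPM. The treated values lay inside the untreated range, and the log2 fold change was 0.02 (SE 0.17; edgeR adjusted p = 0.996). Fibroblasts of the meninges also express Pdgfra.

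Cspg4 encodes the NG2 proteoglycan of precursors, which pericytes carry too. Its level was 45.01, 43.0, 84.1, 47.6 and 42.7 CPM in untreated replicates 1 to 5. It was 48.2, 54.2, 45.8, 78.5 and 77.0 CPM in RG2833 replicates 1 to 5. A single untreated rat, replicate 3, and a pair of treated rats, replicates 4 and 5, lay above the other 7 libraries. The log2 fold change was 0.21 (SE 0.23; edgeR adjusted p = 0.925). Without untreated replicate 3 it was 0.44, with an edgeR adjusted p of 0.316.

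Gpr17, a receptor found for a short time on committed precursors, was at 12.6, 10.6, 23.5, 16.6 and 15.09 CPM in untreated replicates 1 to 5. RG2833 replicates 1 to 5 had 13.4, 12.5, 13.6, 20.4 and 20.2 CPM. The 3 highest libraries were those that were highest for Pdgfra and Cspg4, namely untreated replicate 3 and RG2833 replicates 4 and 5. The log2 fold change was 0.03 (SE 0.22; edgeR adjusted p = 0.996), and -0.031 without both choroid plexus-rich libraries.

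Enpp6 and Bcas1 mark cells that have begun to make myelin, and untreated replicate 3 was among the lowest 2 rats for both. Enpp6, a choline phosphodiesterase, had 7.21, 7.63, 6.75, 10.0 and 10.2 CPM in untreated replicates 1 to 5. In the treated replicates 1 to 5 it had 7.03, 8.80, 7.61, 6.83 and 7.33 CPM. Untreated replicates 4 and 5 were the highest and untreated replicate 3 the lowest, and the log2 fold change was -0.15 (SE 0.14; edgeR adjusted p = 0.919). Bcas1, which stays on in mature myelin, had 289.6, 343, 315, 507 and 449 CPM in untreated replicates 1 to 5. In RG2833 replicates 1 to 5 its level was 366, 444, 345, 465 and 653 CPM. RG2833 replicate 5 had the highest value and untreated replicate 1 the lowest. Its log2 fold change of 0.26 (SE 0.20; edgeR adjusted p = 0.904) was the most positive among the 35 genes. Without RG2833 replicate 5 it was 0.09, and the most positive gene was then Cspg4 at 0.11, as it was without untreated replicate 3. The most positive gene was Olig2 at 0.18 without untreated replicate 1 and Mbp at 0.33 without untreated replicate 5. With limma-voom weights it was Cspg4 at 0.28.

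**Figure D2:**
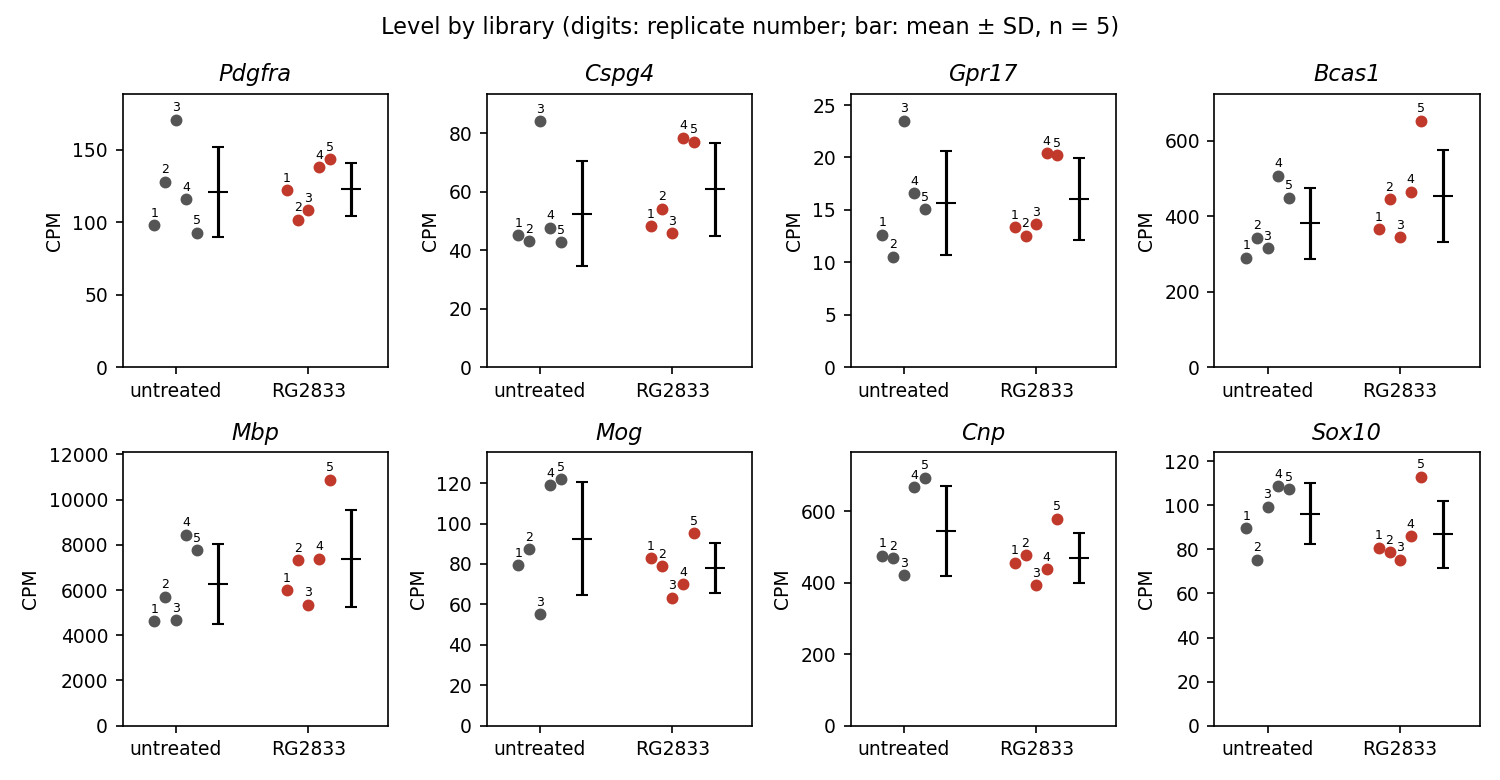
CPM (y axis, from 0) of Pdgfra, Cspg4, Gpr17, Bcas1, Mbp, Mog, Cnp and Sox10 in each rat, by group (x axis); digits are replicate numbers and the bars mean ± SD (n = 5 each). Untreated replicate 3 and RG2833 replicates 4 and 5 are the highest for Pdgfra, Cspg4 and Gpr17, and untreated replicate 3 is the lowest for Mog.

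Among the transcription factors, Olig1 and Olig2 had positive values and the other 4 negative ones. Olig1 and Olig2 specify the lineage and are present at every stage. Olig2 had 52.7, 45.6, 62.6, 58.1 and 56.5 CPM in untreated replicates 1 to 5. RG2833 replicates 1 to 5 had 54.1, 55.3, 51.8, 61.7 and 91.9 CPM. RG2833 replicate 5 lay above every other rat; the log2 fold change was 0.19 (SE 0.16), and 0.018 without it. Olig1 averaged 209 ± 28.2 CPM without drug and 236 ± 49.6 CPM with it (SD, n = 5 each; log2 fold change 0.17, SE 0.15), and its log2 fold change was 0.07 without RG2833 replicate 5.

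Sox10 drives the start of myelin transcription. Its values were 89.7, 75.3, 99.3, 109 and 107 CPM in untreated replicates 1 to 5. They were 80.8, 78.8, 75.4, 86.0 and 113 CPM in RG2833 replicates 1 to 5. Of the treated rats, 4 lay between the lowest 2 untreated values and replicate 5 lay above every untreated one. The log2 fold change was -0.15 (SE 0.13; edgeR adjusted p = 0.919).

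Myrf, the factor that switches on and maintains the myelin program, had 157, 158, 128, 206 and 211 CPM in untreated replicates 1 to 5. Treated replicates 1 to 5 had 154, 151, 132, 158 and 196 CPM. Untreated replicate 3 was the lowest of the 10 rats in Myrf, while in Sox10 it was above the mean; the log2 fold change of Myrf was -0.12 (SE 0.15). Nkx6-2, a homeobox factor of mature cells, averaged 24.3 ± 5.38 CPM without drug and 21.5 ± 4.76 CPM with it (SD, n = 5 each; log2 fold change -0.17, SE 0.18). Nkx2-2, a homeobox factor of cells entering differentiation, averaged 5.23 ± 1.70 and 5.05 ± 1.49 CPM; its log2 fold change was -0.05 (SE 0.27).

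The promoters of 3 myelin genes, Mag, Opalin and Cnp, are shown beside that of Pdgfra so that windows of the mature stage can be read against one of the precursor stage. Each window is the 250 bases before the RefSeq start in the GRCr8 build, written along the gene's strand, 5′ to 3′; the counts were made on the rn6 build, per the submitters' processing notes. Capitals mark matches on either strand to CTGGNAC, the core bound by the MYRF factor, and to ACAANG, a core shared by SOX factors; matches to the former overlap none to the latter in these windows. Mag lies at chr1:95291045-95291294 (minus strand), Opalin at chr1:249858191-249858440 (minus strand), Cnp at chr10:86011254-86011503 (plus strand) and Pdgfra at chr14:33408517-33408766 (minus strand).
Mag: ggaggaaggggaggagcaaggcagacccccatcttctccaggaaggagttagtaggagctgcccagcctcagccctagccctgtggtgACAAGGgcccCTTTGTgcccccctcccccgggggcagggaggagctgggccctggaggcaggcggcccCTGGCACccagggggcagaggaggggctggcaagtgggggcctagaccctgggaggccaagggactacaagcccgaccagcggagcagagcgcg
Opalin: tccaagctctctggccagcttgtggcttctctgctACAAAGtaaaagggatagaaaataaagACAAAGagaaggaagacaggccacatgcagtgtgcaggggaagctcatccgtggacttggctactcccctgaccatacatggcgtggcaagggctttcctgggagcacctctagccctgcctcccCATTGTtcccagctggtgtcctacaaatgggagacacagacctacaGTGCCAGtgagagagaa
Cnp: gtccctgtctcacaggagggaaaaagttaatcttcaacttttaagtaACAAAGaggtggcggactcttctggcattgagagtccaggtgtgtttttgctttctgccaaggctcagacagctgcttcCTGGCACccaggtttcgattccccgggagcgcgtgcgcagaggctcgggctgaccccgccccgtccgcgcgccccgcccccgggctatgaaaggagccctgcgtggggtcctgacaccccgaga
Pdgfra: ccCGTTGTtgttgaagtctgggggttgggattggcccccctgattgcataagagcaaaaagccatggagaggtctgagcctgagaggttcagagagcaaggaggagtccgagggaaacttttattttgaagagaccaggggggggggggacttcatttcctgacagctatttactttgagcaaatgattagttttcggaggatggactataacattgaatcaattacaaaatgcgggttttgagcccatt

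Of the 35 members, 28 had a promoter in the RefSeq table; Mog, Ermn, Myrf, Sox10, Olig1, Lpar1 and Bcas1 did not. CTGGNAC was found in 10 of the 21 windows of mature genes (47.6%), in 0 of the 4 of precursor genes and in 14.5% of all 27457 promoters of the same length. These shares count a single window per gene symbol, the first by chromosome and start where a symbol had more. ACAANG was found in 8 of the 21 mature windows (38.1%), 3 of the 4 precursor windows and 36.5% of all promoters. The mature windows with CTGGNAC were those of Mag, Opalin, Cnp, Mbp, Mal, Cldn11, Hapln2, Gjb1, Gpr37 and Ppp1r14a; among the transcription factors Olig2 had one. The E-box CAGCTG, also searched on both strands, was in 5 of 28 windows (17.9%) and in 11.99% of all promoters. A match is a run of letters and not a measured binding site, and these counts are a description with no test.

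Mbp encodes the basic protein that holds the cytoplasmic faces of myelin together, and its mRNA is carried out into the myelinating processes. Its level was 4635, 5701, 4678, 8456 and 7768 CPM in untreated replicates 1 to 5. It was 5980.5, 7320.3, 5353, 7382 and 10890.0 CPM in RG2833 replicates 1 to 5. The lowest 2 rats were untreated and the highest was treated, with wide overlap between (log2 fold change 0.24, SE 0.23; edgeR adjusted p = 0.921). Without RG2833 replicate 5 the value was 0.059, and limma-voom weights gave 0.036. Mobp, another basic protein of compact myelin, averaged 452 ± 139 CPM without drug and 485 ± 129 CPM with it (SD, n = 5 each); its log2 fold change was 0.10 (SE 0.23).

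The other 11 of the 13 myelin membrane genes had negative log2 fold changes. Mog, on the outer face of the sheath, had 79.5, 87.3, 55.2, 119 and 122 CPM in untreated replicates 1 to 5. RG2833 replicates 1 to 5 had 82.9, 78.9, 63.3, 70.1 and 95.3 CPM. The lowest and the highest 2 of the 10 values were untreated, and the log2 fold change was -0.25 (SE 0.20; edgeR adjusted p = 0.906; exact permutation p = 0.397). Mag, the adhesion molecule facing the axon, had 251, 253, 182, 349 and 360.0 CPM in untreated replicates 1 to 5. In RG2833 replicates 1 to 5 it had 255, 248, 210.0, 229 and 331 CPM. Its lowest and highest rats were also untreated, and its log2 fold change was -0.13 (SE 0.19).

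Cnp, an enzyme of the cytoplasmic channels of the sheath, had 475, 469, 421, 667 and 694 CPM in untreated replicates 1 to 5. RG2833 replicates 1 to 5 had 456, 476, 392.5, 439 and 579 CPM. Untreated replicates 4 and 5 stood above every treated rat, and the other 3 untreated rats lay among the treated ones. The log2 fold change was -0.22 (SE 0.16; 95% interval -0.57 to 0.13). In the edgeR fit of all 10 rats the tetraspanin Tspan2 had the most negative value of the list, -0.27 (SE 0.21), with means of 153 ± 43.7 CPM without drug and 126 ± 27.9 CPM with it (SD, n = 5 each). The tight junction protein Cldn11 followed at -0.26 (SE 0.23), with means of 282 ± 87.9 and 237 ± 52.1 CPM. With limma-voom weights Cldn11 was the most negative, at -0.47. Leaving out single rats put Tf, Mog, Cldn11 or Opalin lowest in some cases.

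Opalin, a transmembrane protein of myelin, had a log2 fold change of -0.24 (SE 0.20), and Ermn, a cytoskeletal protein of the sheath, one of -0.15 (SE 0.21). For the raft proteolipids Mal and Pllp it was -0.12 (SE 0.21) and -0.11 (SE 0.14). For the gap junction protein Gjb1 it was -0.13 (SE 0.22), and for Hapln2, a matrix protein at the nodes of Ranvier, -0.19 (SE 0.17).

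Each of the 4 enzymes of myelin lipid and acetate supply had a small negative value. Fa2h, which hydroxylates the fatty acids of myelin galactolipids, averaged 41.0 ± 11.3 CPM without drug and 35.4 ± 5.14 CPM with it (SD, n = 5 each), and its log2 fold change was -0.21 (SE 0.18). Ugt8, which makes galactosylceramide, was at -0.10 (SE 0.18) on the same log2 scale, and Gal3st1, which sulfates it to sulfatide, at -0.14 (SE 0.16). Aspa, which frees acetate from N-acetylaspartate, was at -0.01 (SE 0.13).

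Of the remaining 7 mature genes 5 had negative values, with a median of -0.01. Plekhb1, a membrane protein with a pleckstrin homology domain, had the most positive log2 fold change of these at 0.15 (SE 0.15), and the lysophosphatidic acid receptor Lpar1 was at 0.03 (SE 0.22). The values were -0.01 for Qdpr, a pteridine reductase, and -0.01 for Gpr37, an orphan receptor. They were -0.05 for the protease Adamts4 and -0.07 for the phosphatase inhibitor Ppp1r14a.

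Tf, the iron carrier transferrin, had the widest range over the rats of the 24 mature genes. It had 801, 1301, 537, 1143 and 1139 CPM in untreated replicates 1 to 5. With RG2833 it had 1479, 768, 643, 783 and 996 CPM in replicates 1 to 5. Choroid plexus epithelium also makes transferrin, and the highest 2 values were those of untreated replicate 2 and RG2833 replicate 1, whose 10 choroid plexus markers summed to 7904 and 9263 CPM. The part of that tissue in the Tf level was not tested. The log2 fold change of Tf was -0.08 (SE 0.27). It was -0.19 without both of those libraries, 0.045 without untreated replicate 2 alone and -0.30 without RG2833 replicate 1 alone.

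The larger variation of the members lay between rats of the same group. Untreated replicate 5 was the highest of the 10 rats for 15 of the 24 mature genes, and untreated replicate 3 the lowest for 15. Untreated replicate 4 was among the highest 3 rats for all 24 and RG2833 replicate 5 for 23, while RG2833 replicate 3 was among the lowest 3 for 21. The median range over the 10 rats was 1.03 on the log2 scale for mature genes, 0.98 for precursor genes and 0.80 for the transcription factors, against 0.60 over all genes tested. The median biological coefficient of variation from edgeR, the spread between rats beyond counting error, was 21.5% for mature genes and 14.4% over all genes.

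**Figure D3:**
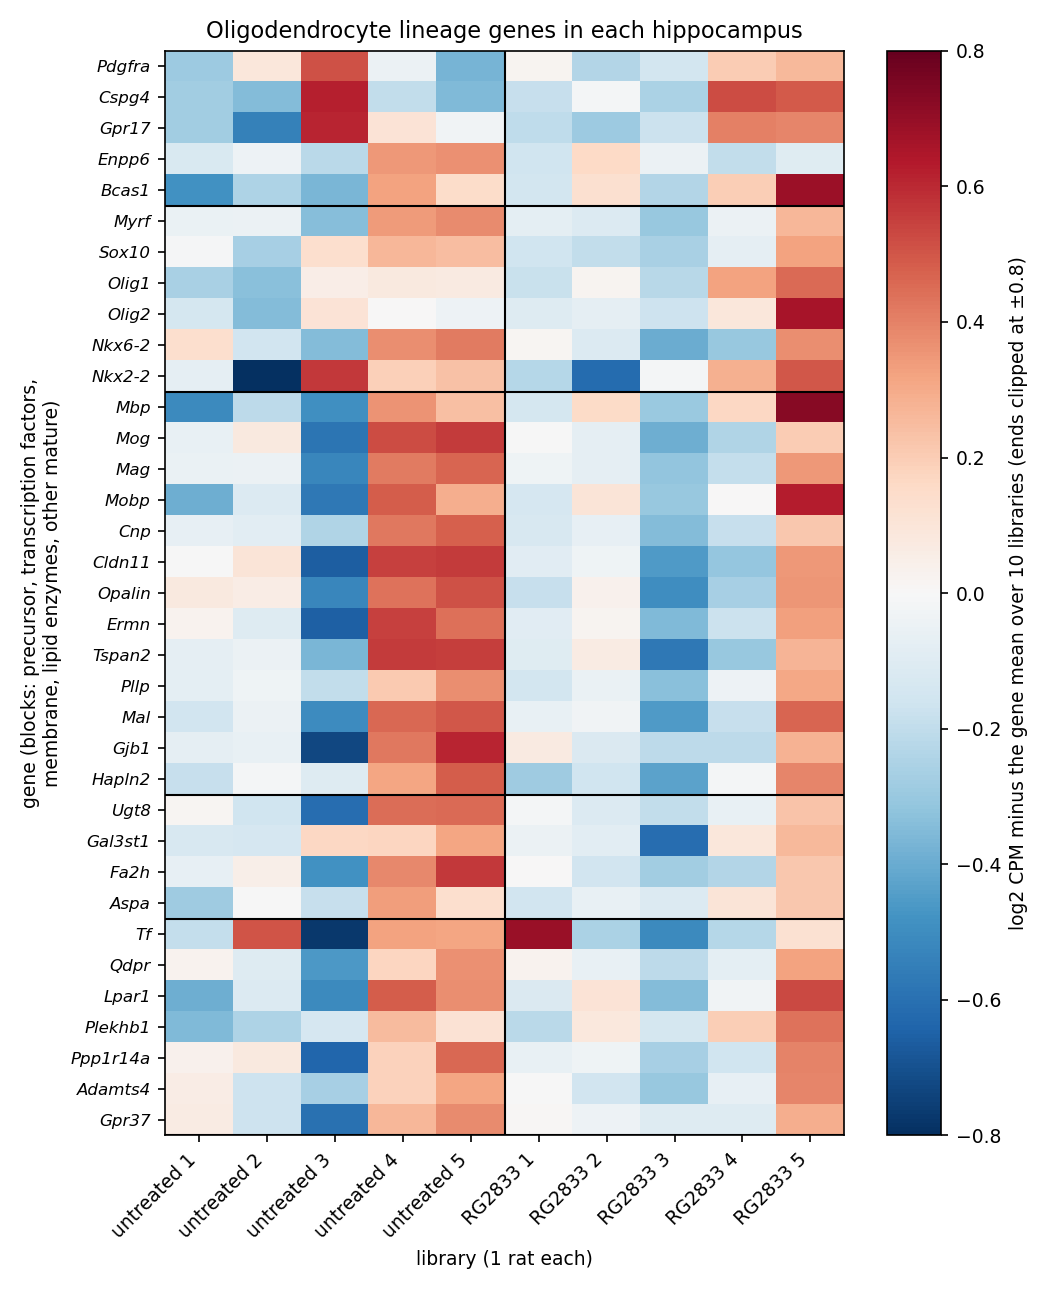
Log2 CPM of each member (rows, in blocks by role) in each rat (columns, untreated on the left), minus the gene's mean over the 10 rats; red is above and blue below the mean, and colours are clipped at 0.8. Most mature genes are blue in untreated replicate 3 and RG2833 replicate 3 and red in untreated replicates 4 and 5 and RG2833 replicate 5, while Pdgfra, Cspg4 and Gpr17 are red in untreated replicate 3.

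Correlations of log2 CPM over the 10 rats were computed for 7 pairs of members, with permutation p-values from 100000 resamples adjusted over the 7 pairs. Mog and Mag were tied most closely, with r = 0.98 and rho = 0.99 (permutation p = 1e-05 for each, the smallest that the resamples can give; adjusted p = 7e-05). Without untreated replicates 3 and 5, the rats farthest from the median of Mog, r was 0.95. Pdgfra and Cspg4 had r = 0.81 (permutation p = 0.00449, adjusted p = 0.0157) and rho = 0.73 (permutation p = 0.0208, adjusted p = 0.0728), with r = 0.67 without the same 2 rats. Mog and Mbp had r = 0.64 (permutation p = 0.0444, adjusted p = 0.104) and rho = 0.66 (permutation p = 0.0447, adjusted p = 0.104). For these r was 0.54 without the same 2 rats, and 0.82 with each group centred on its own mean (permutation adjusted p = 0.0084).

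Correlations of Mog with Pdgfra, Cspg4 and Gpr17 did not pass. For Mog and Pdgfra r was -0.48 and rho -0.32 (permutation p = 0.167 and 0.367; adjusted p = 0.195 and 0.428). For Mog and Cspg4 they were -0.47 and -0.55 (permutation p = 0.164 and 0.105; adjusted p = 0.195 and 0.184). For Mog and Gpr17 they were -0.22 and -0.18 (permutation p, raw and adjusted, = 0.532 and 0.634). Without untreated replicates 3 and 5 these r values were 0.20, -0.06 and 0.16, so the sign for Pdgfra and Gpr17, and most of the size for Cspg4, rested on those 2 rats. The other 2 precursor genes, added after these values were seen and adjusted over 9 pairs, had positive values. Mog and Enpp6 had r = 0.78 and rho = 0.68 (permutation p = 0.00904 and 0.0345; adjusted p = 0.0271 and 0.101), and r = 0.62 without those 2 rats. Mog and Bcas1 had r = 0.55 and rho = 0.52 (permutation p = 0.097 and 0.133; adjusted p = 0.175 and 0.2), and r = 0.48 without them. Mog and Sox10 had r = 0.51 and rho = 0.45 (permutation p = 0.139 and 0.191; adjusted p = 0.195 and 0.267), and r = 0.72 without those 2 rats.

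Precursor and mature genes were then set side by side in each rat. The mean log2 CPM of the 24 mature genes, minus its mean over the 10 rats, was -0.11, -0.04, -0.44, 0.37 and 0.41 in untreated replicates 1 to 5. It was -0.05, -0.04, -0.33, -0.10 and 0.34 in RG2833 replicates 1 to 5. The mean of the 5 precursor genes, centred likewise, was -0.29, -0.22, 0.23, 0.11 and -0.05 in untreated replicates 1 to 5, and -0.13, -0.05, -0.17, 0.22 and 0.35 in RG2833 replicates 1 to 5. Untreated replicate 3 was the lowest rat in mature genes and among the highest 2 in precursor genes, whereas RG2833 replicate 5 was above the mean in both and RG2833 replicate 3 below it in both.

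The difference of these means, mature minus precursor, averaged 0.08 ± 0.44 in untreated and -0.08 ± 0.17 in RG2833 rats (SD, n = 5 each). The shift of -0.16 is smaller than the spread between untreated rats. Untreated replicate 3 was at -0.67 and the other untreated rats between 0.17 and 0.46, while the treated rats lay from -0.33 to 0.083. Thus 4 untreated rats were above all 5 treated rats and 1 was below them. Without untreated replicate 3 the shift was -0.35, and without untreated replicate 5 it was -0.066. No test is given for these means, since the genes were chosen with earlier results of these data known.

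**Figure D4:**
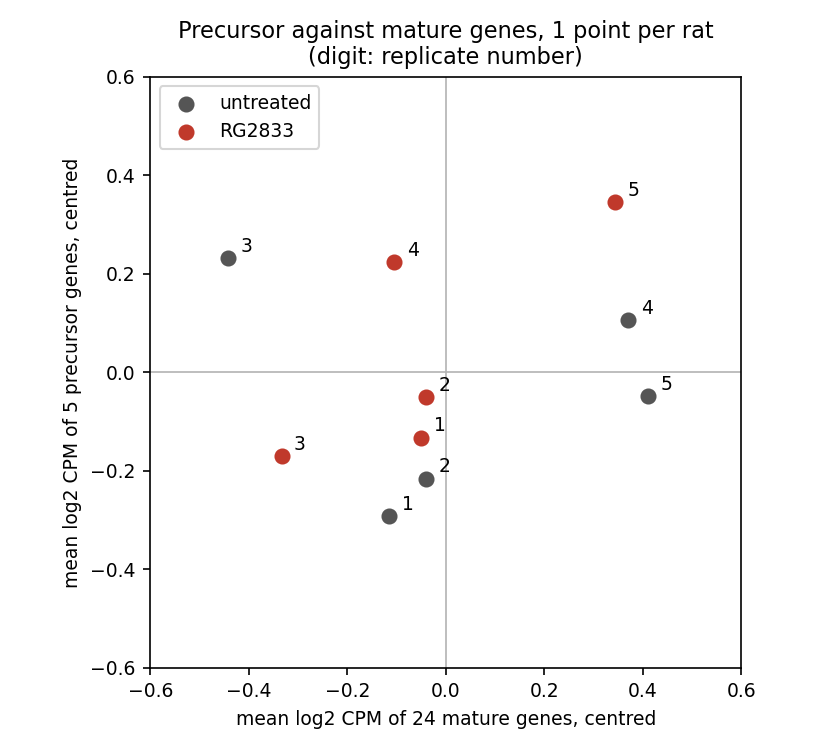
Mean centred log2 CPM of the 5 precursor genes (y axis) against that of the 24 mature genes (x axis), 1 point per rat, grey for untreated and red for RG2833; digits are replicate numbers. Untreated replicate 3 lies at the upper left, at -0.44 for mature and 0.23 for precursor genes; the groups overlap on each axis, and the other 4 untreated rats have higher mature minus precursor values than all 5 treated rats, which places them on the lower right side of a diagonal.

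Ratios between members within a rat do not depend on library scaling, and in some the groups did not overlap although they overlapped for each gene alone. The log2 CPM of Mbp minus that of Cnp was 3.28, 3.60, 3.47, 3.66 and 3.48 in untreated replicates 1 to 5. It was 3.71, 3.94, 3.77, 4.07 and 4.23 in RG2833 replicates 1 to 5. Every treated rat lay above every untreated one, with a shift of 0.44, and of 0.37 to 0.50 when single rats were left out. For Mbp minus Tspan2 the untreated rats ran from 5.17 to 5.48 and the treated from 5.56 to 6.07. For Bcas1 minus Hapln2 they ran from 2.87 to 3.22 and from 3.35 to 3.51. Among the factors, Olig2 minus Sox10 ran from -0.93 to -0.67 in untreated and from -0.58 to -0.30 in treated rats.

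These ratios were picked after their values were seen, so no p is given. Of the 595 pairs of members, 13 (2.18%) had groups that did not overlap, against 1.03% of all 73938880 pairs of genes tested; pairs that share a gene are not independent. In the 13 pairs the gene that was relatively higher in treated rats was Mbp in 4, Bcas1, Mobp and Lpar1 in 2 each, and Olig1, Olig2 and Plekhb1 in 1 each. The relatively lower gene was Opalin, Tspan2 or Hapln2 in 3 each and Cnp or Sox10 in 2 each.

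**Figure D5:**
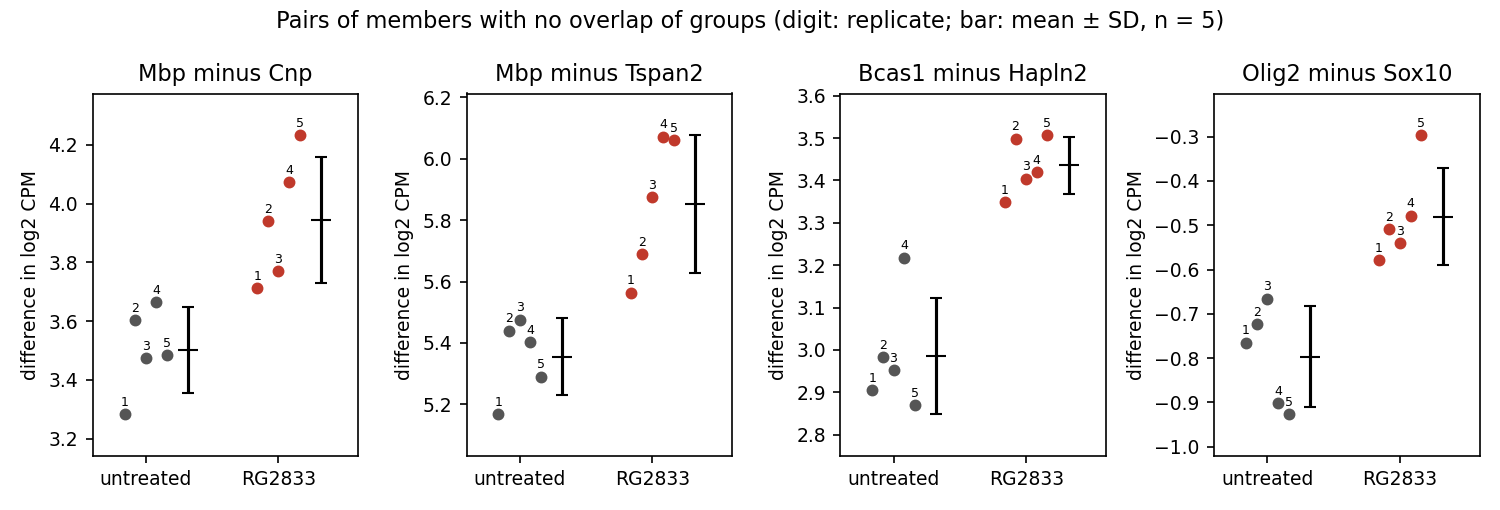
Difference in log2 CPM between the members of 4 pairs (y axis, each panel on its own scale and not from 0) in untreated and RG2833 rats (x axis); digits are replicate numbers and the bars mean ± SD (n = 5 each). The groups do not overlap in these 4 pairs, which were chosen for that.

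Other genes of the lineage were taken from lists that hold none of the 35. Of 40 further mature genes tested, 32 had a negative log2 fold change (median -0.13), and of 18 further precursor and committed-stage genes 5 did (median 0.07). The median of the mature list was -0.058 without untreated replicate 5, -0.072 without RG2833 replicate 3, -0.083 without untreated replicate 4 and -0.23 without untreated replicate 3. That of the precursor list rose to 0.18 without untreated replicate 3 and 0.14 without RG2833 replicate 1, and was 0.024 to 0.033 without any 1 of untreated replicates 1 and 2 and RG2833 replicates 4 and 5, with 8 of 18 negative without RG2833 replicate 5. Limma-voom weights gave 36 of 40 mature genes negative (median -0.24) and 7 of 18 precursor genes (median 0.063). Enpp2 of the mature list was at 2617 CPM in untreated replicate 2 and 2203 CPM in RG2833 replicate 1. The other rats had 90.8 to 186 CPM. Elovl7 was at 18.1 and 22.1 CPM in those 2 libraries and at 5.63 to 7.33 CPM elsewhere. Without both libraries 34 of 40 were negative (median -0.14). The part of choroid plexus in this list was not tested. Of 19 ligands, receptors and inhibitors of differentiation 7 were negative (median 0.03), but 11 were without RG2833 replicate 5 (median -0.044), 10 without RG2833 replicate 4 (-0.038), 11 without untreated replicate 1 (-0.033) and 11 without untreated replicate 2 (-0.023), so the sign of this median turned with single rats. None of these genes had an edgeR adjusted p under 0.05, and 1 of the 77 (1.30%), Fgf2, had an unadjusted p under 0.05, where 5.66% of all genes did. Fgf2, a growth factor that keeps precursors dividing, averaged 5.85 ± 0.864 CPM without drug and 8.16 ± 1.26 CPM with it (SD, n = 5 each). Its log2 fold change was 0.48 (SE 0.14; edgeR adjusted p = 0.841; exact permutation p = 0.0159).

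The next positive values by p were those of Id4, an inhibitor of basic helix-loop-helix factors, at 0.21 (SE 0.10), and of Ptprz1, a receptor phosphatase of precursors and astrocytes, at 0.28 (SE 0.16). On the negative side stood the kinesin Kif19 at -0.45 (SE 0.22), the tubulin Tubb4a at -0.31 (SE 0.15) and the secreted protein Lgi3 at -0.23 (SE 0.12), each with an edgeR adjusted p of 0.841. Among the deacetylases, Hdac1 was at -0.14 (SE 0.08), Hdac2 at -0.14 (SE 0.10) and Hdac3 at -0.12 (SE 0.07), and none passed.

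Markers of other cells differed between the rats as well. Of 90 such markers tested, 7 (7.78%) had an unadjusted p under 0.05 in edgeR, against 5.66% of all genes, and none an adjusted p under 0.05; all 7 are named here, after their values were seen. All 9 astrocyte markers tested had a positive log2 fold change (median 0.33) and none was at 0; their summed level ran from 4862 to 6769 CPM without drug and from 5387 to 7590.1 CPM with it. The median stayed between 0.26 and 0.43 when 1 rat was left out. Of the 9, 3 had a positive value with an unadjusted p under 0.05, where 2.94% of all genes did: the connexin Gjb6 at 0.60 (SE 0.19; unadjusted p = 0.0103), the growth factor receptor Fgfr3 at 0.52 (SE 0.20; unadjusted p = 0.0241) and the connexin Gja1 at 0.32 (SE 0.12; unadjusted p = 0.0285), each with an edgeR adjusted p of 0.841. Leaving out each of the 10 rats in turn kept the unadjusted p under 0.05 in 10 cases for Gjb6 and in 5 each for Fgfr3 and Gja1. The exact permutation p was 0.0397 for Gjb6, 0.0476 for Fgfr3 and 0.0556 for Gja1. Untreated replicate 3 and RG2833 replicates 4 and 5, the rats high in Pdgfra, Cspg4 and Gpr17, were also the highest 3 in the centred mean of the astrocyte list (0.22, 0.43 and 0.42), of 8 endothelial markers (0.49, 0.33 and 0.61) and of 10 microglial markers (0.63, 0.23 and 0.32). The endothelial markers were positive in 7 of 8 (median 0.21; 0.077 without RG2833 replicate 5, 0.13 without untreated replicate 1 and 0.38 without untreated replicate 3). The microglial markers were positive in 8 of 10 (median 0.07), with medians from 0.015 without untreated replicate 1 to 0.28 without untreated replicate 3, and any rat but untreated replicate 5 or RG2833 replicate 2 moved that median by over 1.5 times.

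Markers of pericytes, which share Cspg4, had 3 of 8 negative values, and 2 to 6 when 1 rat was left out; their sum ran from 115 to 201 CPM without drug and from 120.1 to 177 CPM with it. Tagln, a protein of smooth muscle on that list, was at -0.37 (SE 0.14; edgeR unadjusted p = 0.0194, adjusted p = 0.841; exact permutation p = 0.0397). All 10 fibroblast and meningeal markers, of cells that share Pdgfra, had negative values (median -1.07), which rested on untreated replicate 2. Without that library 5 of 10 were negative with a median of 0.038, and without both choroid plexus-rich libraries 8 of 10 were, with a median of -0.32. The sum of these markers ran from 78.2 to 1323 CPM without drug and from 69.7 to 797 CPM with it; the highest library in each group was the choroid plexus-rich one.

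Neuronal markers were negative in 9 of 10 (median -0.07), but in 4 of 10 without untreated replicate 1 and in 5 without RG2833 replicate 4 or 5. The median was 0.039 without untreated replicate 1, -0.018 without RG2833 replicate 5, -0.03 without RG2833 replicate 4 and -0.037 without untreated replicate 5, and it fell to -0.12 without RG2833 replicate 3 and -0.16 without untreated replicate 3. The positive one with all rats was Map2, at 0.43 (SE 0.20; edgeR adjusted p = 0.841), the largest change of that list, named after its values were seen. Of 7 CA3 markers 5 were tested and all 5 were negative (median -0.19), with sums from 93.7 to 233 CPM without drug and from 129.7 to 224 CPM with it. They numbered 3 of 5 without RG2833 replicate 4 or 5, and without untreated replicate 4 the median was -0.064. Lypd6b of that list was at -0.31 (SE 0.14; edgeR unadjusted p = 0.0496, adjusted p = 0.841; exact permutation p = 0.0317). Of the 7 CA1 markers 1 was negative (median 0.11), and 0 to 3 were when 1 rat was left out, with medians from 0.083 without untreated replicate 1 to 0.41 without untreated replicate 5. The negative one with all rats was Dcn, which is also on the fibroblast and meningeal list. Dcn was highest in the choroid plexus-rich libraries, untreated replicate 2 (46.3 CPM) and RG2833 replicate 1 (32.8 CPM). Mpped1, the CA1 marker with the lowest p, was at 0.47 (SE 0.18, edgeR unadjusted p = 0.0241, adjusted p = 0.841, exact permutation p = 0.0635). CA1 sums ran from 514 to 1162 CPM without drug and from 752 to 1045 CPM with it. Of 8 dentate granule markers 5 were tested and 4 were negative, or 2 without untreated replicate 2, and their sum ran from 211 to 374 CPM without drug and from 233 to 334 CPM with it; Tdo2 was at 0 in all 10 libraries. Untreated replicate 3 was the lowest of the 10 in the centred mean of the dentate markers, at -1.10. Of 8 markers of the thalamus, which lies next to the hippocampus, 6 were tested, 3 of them negative, with sums from 60.5 to 94.3 CPM without drug and from 59.9 to 64.9 CPM with it, and Gbx2 was at 0 in 8 libraries. Calb2, the calcium-binding protein calretinin, set the highest of these sums with 44.9 CPM in untreated replicate 4; the other 4 untreated rats had 11.7 to 19.5 CPM and the treated rats 8.40 to 13.8 CPM. Its value was -1.03 (SE 0.35; edgeR unadjusted p = 0.0139, adjusted p = 0.841; exact permutation p = 0.0238), and -0.56 without untreated replicate 4. Leaving out each of the 10 rats in turn kept the edgeR unadjusted p under 0.05 in 10 cases each for Calb2 and Tagln. It did so in 7 cases for Mpped1 and in 4 for Lypd6b. Tcf7l2, on the thalamus list, was also counted among the precursor and committed-stage genes. The 3 red blood cell genes tested were negative (median -0.49), but 1 of 3 was without untreated replicate 5 (median 0.064). The part of these other cells in the values of the lineage genes was not tested.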

How the data were processed

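RNA was extracted with a Qiagen RNeasy Mini kit and sequenced from Kapa stranded libraries of mRNA, per the labels' protocols. The submitters' processing notes name bcl2fastq 2.17, Bowtie2 2.1.0, RSEM 1.2.15, edgeR and the rn6 build; the annotation is not given in the sources used here. The deposited table holds the authors' RSEM expected counts per gene, of which 11.6% of values are not whole. The authors' second table, a deposited signal of TMM-normalized CPM, gave whole reads (100% of values, tolerance 0.02 reads) equal to the rounded expected counts, so a count test on the recovered reads is the test reported, with its 0 genes called.

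Expected counts were rounded and fitted with edgeR 4.0.16 (R 4.3.3): filterByExpr (minimum count 10, total 15; 12161 genes kept), TMM, a robust quasi-likelihood F test of RG2833 against untreated, and Benjamini-Hochberg adjustment over all genes tested; the threshold was 0.05. The standard errors are the log2 fold change over the root of F. Log2 CPM used a prior count of 2. The procedure was tested on simulated data, in which each gene varied independently of the others. Genes that vary together over the rats were not covered by it. Exact permutation tests were two-sided and cannot go below p = 0.00794. The labels do not say whether rats shared a litter, cage or sequencing run, and p-values measure the spread between these samples.

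The members, lists and tests were chosen with earlier results of these data known. Values per library are given by rule for Mbp, Mog, Mag, Cnp, Sox10, Olig2, Myrf and the 5 precursor genes, and for Tf by choice after its values were seen; of the other lineage genes the 3 with the smallest p in each direction and Hdac1, Hdac2 and Hdac3 are named. Alternatives were median-of-ratios and upper-quartile scaling, no filter, DESeq2 1.42.0, limma-voom 3.58.1 with sample weights, a replicate block, a prior count of 0.5, the deposited CPM with a pseudocount of 1, other choices of genes, and leaving out each library. Leaving out both choroid plexus-rich libraries, the ratios between members, the correlations of Mog with Enpp6 and Bcas1, and marker lists and marker genes without single libraries were added after the data were seen. All 35 symbols matched RefSeq; promoter sequences are RefSeq's for GRCr8.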

Additional observations from a re-analysis of the deposited data

Results flagged for a closer look

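Each member and the 3 stage means were examined in both groups of 5 rats for a highest or lowest rat whose gap to its neighbour was over 0.71 of the group's range, with gap and range taken on log2 CPM. Of 76 such sets 3 had one, where chance gives about 1 in 20, or 3.8. Cspg4 in untreated replicate 3 stood off by 0.840 of the log2 range; its level was 84.1 CPM against 42.7 to 47.6 CPM in the remaining 4 rats of its group. The mean of mature minus precursor genes in the same rat was the lowest untreated one by 0.750 of the range, at -0.67. Gpr37 in RG2833 replicate 5 was the highest of its group by 0.713 of the log2 range; its level was 184 CPM against 140.1 to 152 CPM.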

How the results depend on the processing

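Over 17 alternatives no member had an adjusted p under 0.05 (the lowest was 0.316), and 22 of 35 members kept their sign in every one. Over all genes, 0 passed in edgeR and 7 in DESeq2. Members lower at an unadjusted p under 0.05 numbered 0 with all rats, 11 with limma-voom weights, 1 (Hapln2) with the replicate block and 0 to 3 when single rats were left out; those higher numbered 0 to 1. Mature genes with a negative value numbered 13 to 22 of 24 when single rats were left out. Same-numbered rats did not deviate together (correlations -0.49 to -0.034) and none correlated best with its own number, so the numbers were not taken to pair the rats.

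The sign changed for 13 members. When single rats were left out, the log2 fold change ran from -0.062 to 0.17 for Pdgfra, -0.082 to 0.22 for Gpr17, -0.22 to 0.097 for Nkx2-2, -0.069 to 0.25 for Mobp, -0.28 to 0.028 for Gjb1, -0.24 to 0.0047 for Ugt8, -0.077 to 0.081 for Aspa, -0.30 to 0.045 for Tf, -0.12 to 0.084 for Qdpr, -0.11 to 0.18 for Lpar1, -0.21 to 0.046 for Ppp1r14a, -0.17 to 0.031 for Adamts4 and -0.13 to 0.092 for Gpr37. Limma-voom weights gave -0.096 for Mobp and -0.15 for Lpar1, the replicate block 0.021 for Gpr37, and leaving out both choroid plexus-rich libraries -0.031 for Gpr17 and 0.013 for Aspa. Centring within groups gave r = 0.82 for Mog and Mbp. The cause of these changes was not tested.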
